A study of Mus musculus with 21 samples.

Results

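The natriuretic peptide system is described here by 9 genes out of the 53801 gene identifiers counted in each library. They were taken by symbol and are 3 peptide genes (Nppa, Nppb, Nppc), 3 receptor genes (Npr1, Npr2, Npr3) and 3 protease genes (Mme, Corin, Furin). All 9 were found. The rule reads gene names, not measured values, but the members, and the gene lists and markers used below, were chosen with earlier results of these data known. The 15 heart libraries, sham included, were labelled border zone and taken on day 7. In an infarcted heart the border zone is the muscle beside the infarct. They were 4 from WT mice with myocardial infarction and FAPI (labelled MI+FAPI, called FAPI hearts), 4 from FapKO mice with MI (FapKO hearts), 4 from WT mice with MI (MI hearts) and 3 sham-operated WT hearts. In 6 further libraries, cardiac fibroblasts were cultured for 7 days in 5% GelMA, a gelatin hydrogel, 3 of them mixed 2:1 with endothelial cells of heart and lung and 3 alone. FAPI is read as an inhibitor of fibroblast activation protein (Fap) from the series title. Its compound and dose, the design of the knockout, and the mice's strain, sex and age were not stated in the labels. The labels do not say that each heart library came from a separate animal, so the p-values speak of spread among libraries, which may be technical.

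Natriuretic peptides are small hormones that lower blood pressure and oppose hypertrophy and fibrosis in the heart. Atrial (ANP) and B-type (BNP) natriuretic peptide come mainly from myocytes and rise in stretched or injured ventricle, whereas C-type peptide (CNP) acts locally and is known from endothelium. The peptides are cut from longer precursors by corin or furin, raise cyclic GMP through guanylate cyclase receptors, and are removed by a clearance receptor and by proteases such as neprilysin. The series title names the stability of BNP, which is a property of the peptide. The values below are RNA counts and do not measure it.

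Nppa and Nppb lie side by side on the plus strand of mouse chromosome 4 (mm10), at 148000722–148002079 and 147985788–147987205, with 13517 bases between the end of Nppb and the start of Nppa. Their promoters are shown because most of the peptide results concern these neighbours. Each line gives the 250 bases before the RefSeq start (GRCm38.p6, plus strand). Capitals mark GATAA, the core letters bound by GATA factors, CATTCC, the M-CAT element bound by TEAD factors, and TATAAA, each on either strand. The Nppa window is chr4:148000472-148000721 and the Nppb window is chr4:147985650-147985899.
Nppa promoter: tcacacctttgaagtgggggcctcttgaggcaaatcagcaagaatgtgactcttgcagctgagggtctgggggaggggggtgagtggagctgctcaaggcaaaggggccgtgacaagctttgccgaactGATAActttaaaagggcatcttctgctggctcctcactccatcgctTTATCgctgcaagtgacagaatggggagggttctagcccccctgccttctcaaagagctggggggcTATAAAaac
Nppb promoter: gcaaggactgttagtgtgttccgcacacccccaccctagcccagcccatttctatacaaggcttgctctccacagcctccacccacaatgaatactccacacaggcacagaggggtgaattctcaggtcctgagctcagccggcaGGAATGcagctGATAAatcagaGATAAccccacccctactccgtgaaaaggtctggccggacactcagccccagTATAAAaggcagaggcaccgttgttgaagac

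In windows that ran from 250 bases before to 50 bases after a start, GATAA occurred 2 times for Nppa (first base at -121 and, on the other strand, at -75) and 2 times for Nppb (-94 and -83). It occurred 0 times in the windows of the other 7 genes, and 25.4% of all 32851 windows held it. CATTCC on the other strand was present for Nppb at -105 and 0 times for Nppa, and 14.7% of all windows held it. TATAAA stood at -9 for Nppa and at -31 for Nppb, and 13.6% of all windows held it. The Nkx2-5 element AAGTG occurred 2 times for Nppa and 0 times for Nppb (46.4% of all windows), and the AP-1 letters TGANTCA 0 times for both (7.81% of all windows). The E-box letters CANNTG occurred 2 times for Nppa and 1 time for Nppb (72.3% of all windows). At Nppb the E-box at -99 shares a base with the GATAA at -94, and at Nppa the E-box at -66 overlaps the AAGTG at -65. The RefSeq start of Nppb lies 112 bases after the start of the gene model used for counting. These matches describe letters only.

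Heart libraries held 18474138 to 37287355 gene counts and fibroblast libraries 4735337 to 15650221. The targeted gene followed the labels: Fap averaged 2.16 ± 0.257 CPM (reads of a gene relative to the total of its library, scaled by TMM) in FapKO hearts and 11.2 ± 1.57 CPM in MI hearts (SD, n = 4 each). All 21 cardiomyocyte markers were called higher in FAPI hearts than in MI hearts, all 21 were higher in FapKO than in MI hearts, and all 21 were lower in MI than in sham hearts. Their summed level was 48140 to 86290 CPM in FAPI hearts, 70830 to 85220 CPM in FapKO hearts, 14430 to 42760 CPM in MI hearts and 120500 to 140200 CPM in sham hearts. In such bulk samples, fewer cells of a type and less RNA per cell cannot be told apart. The mitochondrial share of counts was 10.9% to 13.2% in FAPI, 13.0% to 14.1% in FapKO, 4.18% to 8.03% in MI and 15.2% to 19.6% in sham hearts. MI replicate 3 stood apart from the other 3 MI hearts, with the highest cardiomyocyte marker level of its group (9.41 on the log2 CPM scale, against 8.05 to 8.44) and the highest neutrophil level (5.26, against 2.81 to 4.17). Where leaving it out changed a call, both values are given below.

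Per kilobase of exon, the peptide genes Nppa and Nppb were the most abundant of the 9 in every heart group. Nppa averaged 1101 CPM per kb in FAPI hearts, 784 in FapKO hearts, 700.1 in MI hearts and 190 ± 42.8 (SD, n = 3) in sham hearts. Nppb averaged 320 ± 108 CPM per kb in FAPI hearts (SD, n = 4), 141 in FapKO hearts, 93.9 in MI hearts and 60.5 in sham hearts. Corin followed them in FAPI (3.42 CPM per kb), FapKO (4.82) and sham hearts (6.02) and was lower in MI hearts (1.77), where its range overlapped those of Furin (1.94) and Npr2 (1.85). Npr2 and Furin were neighbours in the order of every group and overlapped in each. Npr1 stood above Npr3 in all 4 groups, at 0.604 against 0.480 CPM per kb in FAPI, 0.764 against 0.453 in FapKO, 0.754 against 0.458 in MI and 0.683 against 0.364 in sham hearts. The ranges of these receptors overlapped in FAPI and MI hearts and did not overlap in FapKO and sham hearts. This order depended on the division by exon length. In CPM the mean of Npr3 lay above that of Npr1 in all 4 groups, at 4.51 against 2.89 in FAPI hearts. Nppc and Mme were the lowest 2 in FAPI, FapKO and sham hearts. In MI hearts Mme alone was lowest (0.0794 CPM per kb) and Nppc (0.713) lay between Npr1 and Npr3 with overlapping ranges. That place of Nppc rested on MI replicate 3, which held 1.76 CPM per kb. The other MI hearts held 0.333 to 0.386, below the Npr3 mean of 0.458.

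Nppa (ENSMUSG00000041616.9), which encodes the ANP precursor, was the member with the highest level. Its level was 1149, 1294, 533 and 833 CPM in FAPI replicates 1 to 4, and 729.9, 773, 626 and 583 CPM in FapKO hearts. It was 778, 610.2, 752 and 282 CPM in MI hearts and 135, 206 and 151 CPM in sham hearts. Every infarcted heart lay above every sham heart, and the ranges of the 3 infarcted groups overlapped. In the quasi-likelihood test of edgeR, with p-values adjusted over all genes by the Benjamini-Hochberg method, Nppa rose in MI against sham hearts by 1.89 ± 0.329 on the log2 scale (SE, adjusted p = 8.67e-05). It was also higher in FAPI than in sham hearts (log2 2.54 ± 0.339, adjusted p = 1.33e-05) and in FapKO than in sham hearts (log2 2.05 ± 0.331, adjusted p = 0.000251). Against MI hearts, the log2 difference was 0.65 ± 0.287 in FAPI hearts (adjusted p = 0.0979) and 0.16 ± 0.286 in FapKO hearts (adjusted p = 0.656). FAPI against FapKO hearts gave 0.49 ± 0.287 (adjusted p = 0.268). The FAPI difference passed the threshold without FAPI replicate 3 (log2 0.85, adjusted p = 0.0265) and when low counts were kept (0.66, 0.0229).

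Nppa is also a marker of atrial muscle, so a list of 5 other atrial genes was read beside it. Their summed level was 15.1 to 24.4 CPM in FAPI hearts, 20.1 to 81.9 CPM in FapKO hearts, 15.9 to 233 CPM in MI hearts and 36.7 to 42.5 CPM in sham hearts. On the log2 CPM scale their mean level was 2.71 in MI replicate 3 and 0.371 to 1.86 in the other MI hearts. Bmp10, an atrial growth factor gene, was at 0 in all FAPI, FapKO and sham hearts and reached 0.0619 CPM at most in MI hearts. In MI against sham hearts 2 of the 4 tested atrial genes were higher and 1 was lower, in FAPI against MI hearts 1 was higher and 2 were lower, and in FapKO against MI hearts 1 was higher and 1 lower. Their part in the Nppa values was not tested. The antisense gene Gm13054 shares 532 exon bases with Nppa and had 915 counts over all libraries, and whether counting used the strand is not stated. Antisense genes also share exon bases with Npr3 (Gm5144, 129 counts over all libraries) and with Npr1, Npr2, Corin and Furin (8 counts or fewer each), and without strand such reads cannot be told apart.

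**Figure D1:**
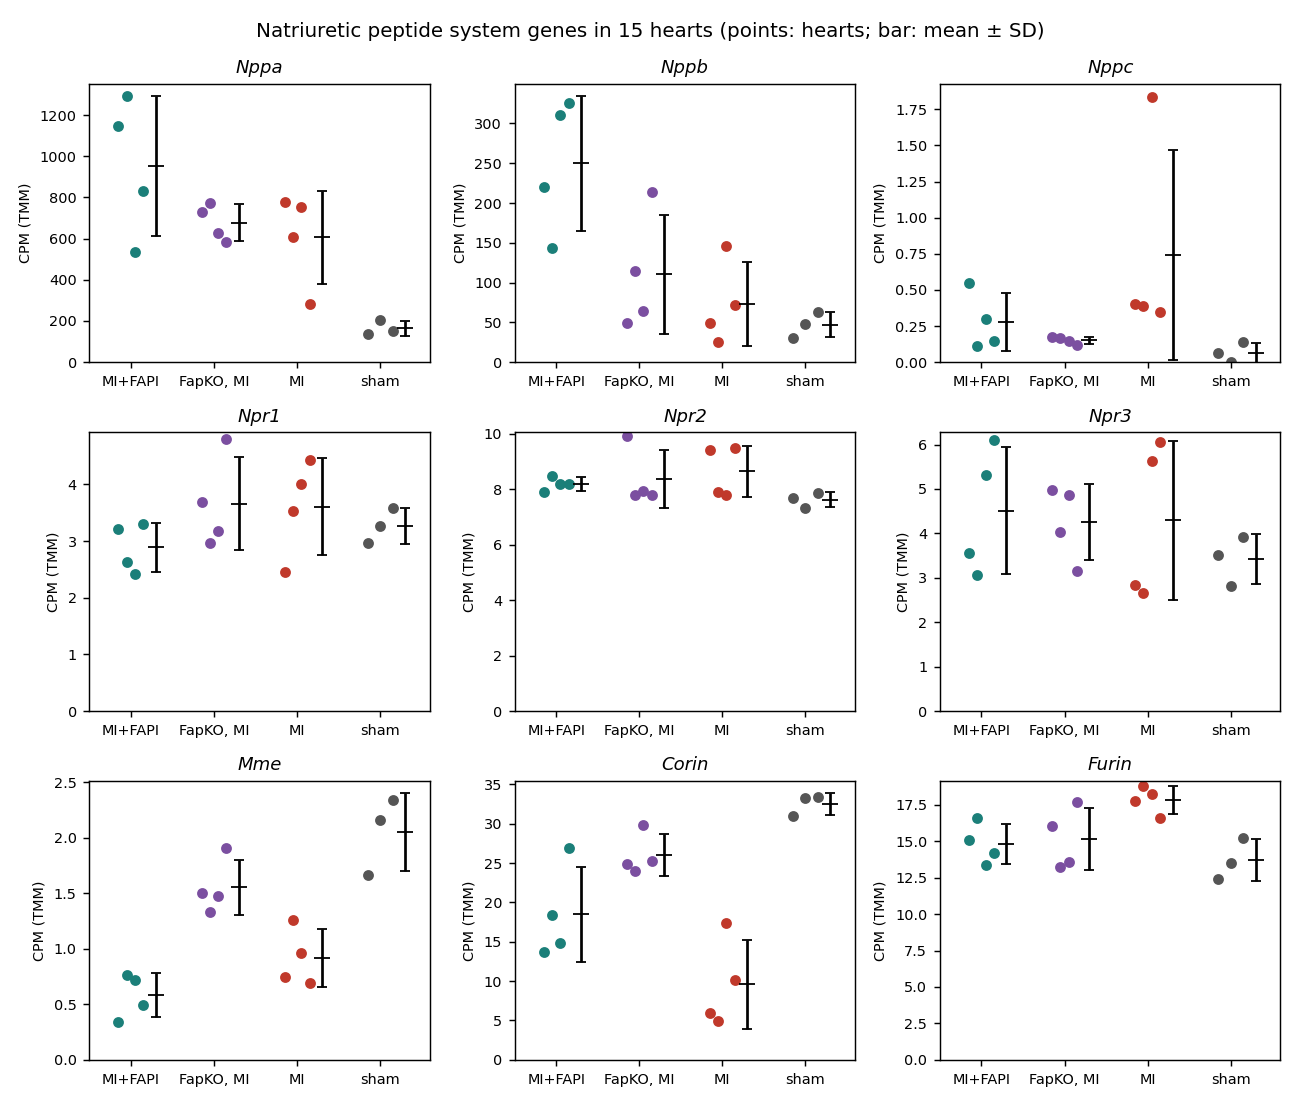
Level of the 9 genes in 15 hearts, in TMM-scaled CPM on linear axes from 0. Points are hearts and bars are the group mean ± SD (n = 4 in MI+FAPI, FapKO and MI hearts, 3 in sham hearts). Nppa separates all infarcted hearts from sham hearts, and Nppb is highest in MI+FAPI hearts on average. Corin has its lowest mean in MI hearts and Mme in MI+FAPI hearts. The 3 receptor genes overlap between the infarcted groups.

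Nppb (ENSMUSG00000029019.8), which encodes the BNP precursor, was called higher in FAPI than in MI hearts. Its level was 220.0, 144, 310.1 and 325 CPM in FAPI hearts and 49.3, 114, 63.9 and 213 CPM in FapKO hearts. It was 49.8, 25.2, 147 and 71.9 CPM in MI hearts and 31.0, 47.6 and 63.2 CPM in sham hearts. Of the 4 FAPI hearts, 3 lay above every MI heart, and the other lay just under MI replicate 3. Nppb was higher in FAPI than in MI hearts by 1.77 ± 0.491 on the log2 scale, a 3.41-fold difference (adjusted p = 0.0129 by edgeR). Without MI replicate 3 this difference was 2.35 on the log2 scale (adjusted p = 0.00132). Nppb was also higher in FAPI than in sham hearts (log2 2.40 ± 0.564, adjusted p = 0.00185).

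In MI against sham hearts the test did not call Nppb (log2 0.63 ± 0.529, adjusted p = 0.295), and the difference was 0.05 without MI replicate 3. Under total-count scaling Nppb was called higher in MI than in sham hearts (1.64, adjusted p = 0.00851). In FapKO against MI hearts the log2 difference was 0.59 ± 0.480 (adjusted p = 0.322), and without MI replicate 3 it passed the threshold (1.17, adjusted p = 0.0401). In FapKO against sham hearts it was 1.22 ± 0.538 (adjusted p = 0.0815), and it passed under total-count scaling, with no filter, in a fit of only these groups, with a covariate for the level of cardiomyocyte markers and without FapKO replicate 1. FAPI and FapKO hearts set directly against each other differed by 1.18 ± 0.483 (adjusted p = 0.115). That difference passed without FapKO replicate 4, the highest FapKO heart (1.72, adjusted p = 0.0334), and when low counts were kept (1.19, adjusted p = 0.00527).

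Nppb was also set against Nppa within each heart. The log2 ratio of Nppb over Nppa within a library, at a pseudocount of 0.5 CPM, was -1.92 ± 1.06 in FAPI hearts, -2.84 ± 1.04 in FapKO hearts, -3.21 ± 1.25 in MI hearts (SD, n = 4 each) and -1.82 ± 0.496 in sham hearts (SD, n = 3). The FAPI hearts with the most Nppa (replicates 1 and 2) had the least Nppb of their group. In exact two-sided permutation tests the ratio was not called in FAPI against MI hearts (difference 1.29, p = 0.2, adjusted p = 0.3), FapKO against MI hearts (0.37, p = 0.657) or MI against sham hearts (-1.39, p = 0.2, adjusted p = 0.3). These were 3 of 15 such tests of ratios within libraries, and the smallest p that the design allows is 0.0286.

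**Figure D2:**
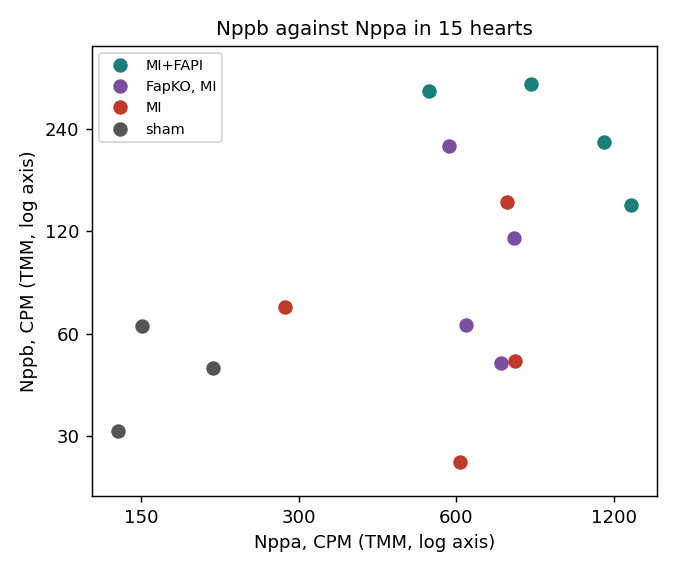
Nppb against Nppa in each of the 15 hearts, in TMM-scaled CPM, both on log axes. Each point is a heart. Sham hearts have the lowest Nppa, MI hearts spread over 25.2 to 147 CPM of Nppb, and the 4 MI+FAPI hearts lie at 144 CPM of Nppb or above.

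Nppc (ENSMUSG00000026241.5, chromosome 1, 86666291–86670571, minus strand), which encodes the CNP precursor, was close to the limit of detection. It had 16, 3, 10 and 5 counts in FAPI hearts, 4, 5, 4 and 3 in FapKO hearts, 13, 15, 59 and 9 in MI hearts, and 1, 0 and 2 in sham hearts. A level of 3 counts equals 0.0866 to 0.110 CPM in FAPI, 0.102 to 0.129 CPM in FapKO, 0.0773 to 0.116 CPM in MI and 0.185 to 0.207 CPM in sham hearts, so the sham hearts lay at or below it. MI replicate 3 held 1.84 CPM, above the 0.347 to 0.402 CPM of the other MI hearts. Over the summed counts, MI hearts had 11.4 times the sham level (95% exact interval 3.79 to 56.2, counting error only), from 96 and 3 counts. Without MI replicate 3, which held 59 of the 96, the ratio was 5.85 (95% exact interval 1.85 to 29.6), from 37 and 3 counts. The edgeR test called Nppc higher in MI than in sham hearts (adjusted p = 0.0052), also without MI replicate 3 (adjusted p = 0.00892). Nppc passed the filter on low counts through the MI hearts and FAPI replicate 1, where it was high. Its calls against MI hearts and of MI against sham hearts are therefore not independent of that filter. It was not tested where at least 1 CPM in 3 libraries was required. Nppc was lower in FapKO than in MI hearts (log2 -2.26 ± 0.642, adjusted p = 0.00774), with a difference of -1.30 without MI replicate 3 (adjusted p = 0.0414).

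In FAPI against MI hearts the Nppc difference was -1.43 ± 0.565 (adjusted p = 0.068). It was -0.47 without MI replicate 3. It passed the threshold without MI replicate 2, MI replicate 4 or FAPI replicate 1 (-1.66, -1.64 and -1.96), under total-count scaling (-1.77) and with no filter on low counts (-1.42). In FAPI against FapKO hearts the difference was 0.84 ± 0.729 (adjusted p = 0.474). Against sham hearts, the summed counts gave a ratio of 4.19 in FAPI hearts (95% exact interval 1.32 to 21.3) and 2.33 in FapKO hearts (0.667 to 12.5), and neither was called by edgeR (adjusted p = 0.141 and 0.477). The FAPI against sham difference passed under total-count scaling (adjusted p = 0.0274) and with the marker covariate (adjusted p = 0.0327). Endothelial markers, which mark cells known to make CNP, had a level of 4.59 to 4.85 in FAPI, 4.85 to 5.01 in FapKO, 4.37 to 4.81 in MI and 4.77 to 4.95 in sham hearts on the log2 CPM scale. Of 12 such markers, 6 were lower in MI than in sham hearts and 0 were higher.

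The 3 receptor genes were not called in any of the 6 heart comparisons by edgeR with TMM and no covariate, limma-voom with TMM or DESeq2. In that edgeR fit 0 of their tests had an unadjusted p under 0.05. With the cardiomyocyte marker covariate, edgeR called Npr3 higher in FAPI than in sham hearts (log2 1.04, adjusted p = 0.0488). Npr1 (ENSMUSG00000027931.12, chromosome 3, 90450591–90465866, minus strand) encodes the guanylate cyclase receptor of ANP and BNP. Its level was 3.20, 2.63, 2.42 and 3.29 CPM in FAPI hearts, 3.69, 2.96, 3.17 and 4.80 CPM in FapKO hearts, 2.44, 3.53, 4.01 and 4.43 CPM in MI hearts, and 2.96, 3.27 and 3.58 CPM in sham hearts. The groups overlapped, and the log2 difference was -0.32 ± 0.187 in FAPI against MI hearts (adjusted p = 0.218), 0.02 ± 0.186 in FapKO against MI hearts and 0.14 ± 0.213 in MI against sham hearts. It was -0.34 ± 0.189 in FAPI against FapKO, -0.18 ± 0.215 in FAPI against sham and 0.16 ± 0.215 in FapKO against sham hearts.

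Npr2 (ENSMUSG00000028469.15, chromosome 4, 43631935–43651244, plus strand) encodes the CNP receptor, which is also a guanylate cyclase. Its mean was 8.19 ± 0.238 CPM in FAPI, 8.36 ± 1.04 in FapKO, 8.65 ± 0.922 in MI (SD, n = 4 each) and 7.62 ± 0.279 CPM in sham hearts (SD, n = 3). FapKO replicate 1 held 9.92 CPM, and the other 3 FapKO hearts held 7.80 to 7.92 CPM. The log2 difference was -0.08 ± 0.101 in FAPI against MI, -0.05 ± 0.101 in FapKO against MI and 0.18 ± 0.114 in MI against sham hearts (adjusted p = 0.17). The 4 FAPI hearts lay above the 3 sham hearts without passing the test (log2 0.10 ± 0.114, adjusted p = 0.46). The difference was -0.03 ± 0.102 in FAPI against FapKO and 0.13 ± 0.115 in FapKO against sham hearts.

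Npr3 (ENSMUSG00000022206.7, chromosome 15, 11839896–11907287, minus strand) encodes the clearance receptor, which takes up all 3 peptides and has no cyclase domain. Its level was 3.55, 3.07, 5.32 and 6.09 CPM in FAPI hearts, 4.98, 4.02, 4.86 and 3.16 CPM in FapKO hearts, 2.85, 2.66, 5.63 and 6.05 CPM in MI hearts, and 3.51, 2.81 and 3.93 CPM in sham hearts. In the FAPI and the MI group alike, replicates 1 and 2 were low and replicates 3 and 4 were high. The log2 difference was 0.09 ± 0.269 in FAPI against MI hearts (adjusted p = 0.838), -0.00 ± 0.274 in FapKO against MI hearts and 0.32 ± 0.316 in MI against sham hearts (adjusted p = 0.377). Without MI replicate 3, the difference was 0.16 in FapKO against MI and 0.16 in MI against sham hearts. It was 0.09 ± 0.272 in FAPI against FapKO, 0.41 ± 0.316 in FAPI against sham and 0.32 ± 0.318 in FapKO against sham hearts. The log2 ratio of Npr3 over Npr1 within a library differed by 0.36 in FAPI against MI (exact permutation p = 0.257), 0.03 in FapKO against MI (exact permutation p = 0.943) and 0.12 in MI against sham hearts (exact permutation p = 0.571).

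Mme (ENSMUSG00000027820.12, chromosome 3, 63241537–63386030, plus strand) encodes neprilysin, a membrane peptidase that degrades natriuretic peptides, and it was the member that separated FAPI from FapKO hearts. Its level was 0.345, 0.767, 0.718 and 0.491 CPM in FAPI hearts (10 to 24 counts) and 1.50, 1.33, 1.47 and 1.91 CPM in FapKO hearts (35 to 49 counts). It was 0.743, 1.26, 0.965 and 0.694 CPM in MI hearts and 1.66, 2.16 and 2.34 CPM in sham hearts. Every FAPI heart lay below every FapKO heart. Mme was lower in FAPI than in FapKO hearts (log2 -1.41 ± 0.257, adjusted p = 0.0022), and the 18 other settings run for this comparison gave -1.57 to -1.24 (adjusted p from 2.5e-05 to 0.00815). This is also the test of whether the difference from MI hearts was unlike between the inhibitor and the knockout, since both share the same MI hearts. No sham-operated FapKO hearts were among the libraries. A difference of the FapKO mice that was there before infarction therefore cannot be told apart, here or in the other FapKO comparisons.

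Mme fell in MI against sham hearts by 1.14 ± 0.268 on the log2 scale (adjusted p = 0.00124), with no overlap. It was lower in FAPI than in sham hearts (log2 -1.82 ± 0.280, adjusted p = 5.13e-05). It was higher in FapKO than in MI hearts, with no overlap (log2 0.74 ± 0.243, adjusted p = 0.0179), a call that was lost without MI replicate 1 (0.65, adjusted p = 0.0531), MI replicate 4 (0.63, 0.053) or FapKO replicate 4 (0.63, 0.0592). In FAPI against MI hearts the difference was -0.67 ± 0.263 (adjusted p = 0.0641), and in FapKO against sham hearts -0.40 ± 0.262 (adjusted p = 0.236). The FAPI against MI difference passed without MI replicate 4 (-0.78), FAPI replicate 2 (-0.83) or FAPI replicate 3 (-0.80), and under total-count scaling (-1.10, adjusted p = 0.00557).

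Corin (ENSMUSG00000005220.10, chromosome 5, 72300025–72504473, minus strand) encodes the membrane serine protease of cardiomyocytes that activates the ANP precursor. Its level was 13.7, 18.4, 14.9 and 27.0 CPM in FAPI hearts, 24.9, 24.0, 29.9 and 25.3 CPM in FapKO hearts, 5.94, 4.87, 17.3 and 10.2 CPM in MI hearts, and 30.9, 33.2 and 33.4 CPM in sham hearts. MI replicates 1, 2 and 4 lay below every FAPI heart, all MI hearts lay below every FapKO heart, and all infarcted hearts lay below every sham heart. Corin fell in MI against sham hearts by 1.77 ± 0.320 on the log2 scale (adjusted p = 0.000124), to 0.294 of the sham level. It was higher in FapKO than in MI hearts by 1.45 ± 0.300 (adjusted p = 0.000775) and in FAPI than in MI hearts by 0.95 ± 0.298 (adjusted p = 0.0238). Without MI replicate 3 the log2 difference was -2.23 in MI against sham and 1.91 in FapKO against MI hearts.

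The FAPI difference in Corin was lost without MI replicate 1 (0.78, adjusted p = 0.0731), MI replicate 2 (0.73, 0.0682) or FAPI replicate 4 (0.71, 0.104), in a fit of only these groups (0.94, 0.0809) and under total-count scaling (0.55, 0.0646). Without MI replicate 3 it was 1.41 (adjusted p = 0.000305). In FAPI against sham hearts Corin was lower (log2 -0.81 ± 0.314, adjusted p = 0.0367), a call lost when any of the 3 sham hearts or FAPI replicate 1, 2 or 3 was left out (adjusted p from 0.0599 to 0.0941). In FapKO against sham hearts Corin was not called (log2 -0.32 ± 0.314, adjusted p = 0.432) although all FapKO hearts lay below all sham hearts. A fit of only these groups called it lower (-0.27, adjusted p = 0.0424). The edgeR fit with the cardiomyocyte marker covariate called it higher (0.44, adjusted p = 0.0382). FAPI against FapKO hearts gave -0.49 ± 0.291 (adjusted p = 0.274).

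Furin (ENSMUSG00000030530.15, chromosome 7, 80388585–80405436, minus strand) encodes the ubiquitous convertase that cuts the BNP and CNP precursors among many other proteins. Its mean was 14.8 ± 1.40 CPM in FAPI hearts, 15.1 ± 2.12 in FapKO hearts, 17.8 ± 0.947 in MI hearts (SD, n = 4 each) and 13.7 ± 1.43 CPM in sham hearts (SD, n = 3). The 4 MI hearts (16.6 to 18.8 CPM) lay above the 3 sham hearts (12.4 to 15.2 CPM). Furin rose in MI against sham hearts by 0.38 ± 0.119 on the log2 scale (adjusted p = 0.00954), and not past the threshold without sham replicate 1 (0.31, adjusted p = 0.0577). The difference was -0.27 ± 0.107 in FAPI against MI (adjusted p = 0.0677) and -0.24 ± 0.107 in FapKO against MI hearts (adjusted p = 0.0747). The macrophage marker level was 6.78 to 7.33 in FAPI, 6.13 to 6.71 in FapKO, 7.49 to 7.74 in MI and 5.78 to 5.96 in sham hearts on the log2 CPM scale. Of 10 macrophage markers, 6 were lower in FAPI than in MI, 9 lower in FapKO than in MI and 9 higher in MI than in sham hearts. Their part in the Furin values was not tested. The Furin difference passed without FAPI replicate 2 (-0.33, adjusted p = 0.048) in FAPI against MI and without FapKO replicate 4 in FapKO against MI hearts (-0.32, adjusted p = 0.0234), and in both under total-count scaling (-0.69 and -0.78). It was -0.03 ± 0.107 in FAPI against FapKO, 0.11 ± 0.119 in FAPI against sham and 0.14 ± 0.119 in FapKO against sham hearts.

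**Figure D3:**
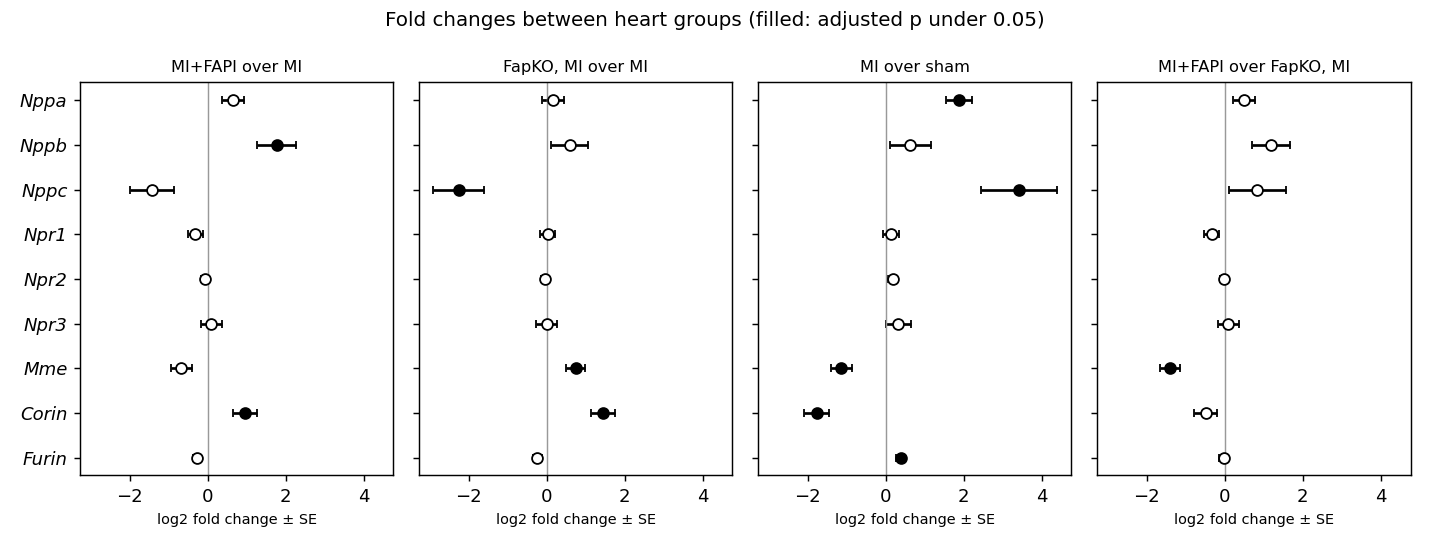
Log2 fold change ± SE of the 9 genes in 4 comparisons of heart groups from edgeR's quasi-likelihood fit of 15 hearts. Filled points had an adjusted p under 0.05 over all genes. Filled points are Nppb and Corin for MI+FAPI over MI, Nppc, Mme and Corin for FapKO over MI, Nppa, Nppc, Mme, Corin and Furin for MI over sham, and Mme alone for MI+FAPI over FapKO hearts. With total-count scaling Corin is not called for MI+FAPI over MI, Mme is not called for FapKO over MI or for MI over sham, and the Npr1 value for FapKO over MI turns negative.

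Counted over the 9 genes, 2 were called higher and 0 lower in FAPI against MI hearts, where 29.8% of the 17064 genes tested were called (17.9% higher and 11.9% lower). In that comparison 3 members were lower at an unadjusted p under 0.05, and DESeq2 and limma-voom each called 0 lower. In FapKO against MI hearts 2 were higher and 1 lower (51.0% of all genes, 25.0% higher and 26.0% lower), and in MI against sham hearts 3 were higher and 2 lower (69.1%, 37.1% higher and 32.0% lower). In FAPI against FapKO hearts 0 were higher and 1 lower (13.2% of all genes, 7.05% higher and 6.12% lower), with 1 higher at an unadjusted p under 0.05 and 0 higher by DESeq2 and limma-voom. In FAPI against sham hearts 2 were higher and 2 lower (55.8%, 29.2% higher and 26.5% lower), and in FapKO against sham hearts 1 was higher and 0 lower (39.5%, 19.2% higher and 20.3% lower), with 0 lower unadjusted or by the other tools. Groups did not overlap for 0 of 9 members in FAPI against MI (26.1% of all genes), 3 in FapKO against MI (45.4%), 5 in MI against sham (67.5%), 1 in FAPI against FapKO (18.6%), 5 in FAPI against sham (57.5%) and 2 in FapKO against sham hearts (46.8%). In each comparison the members' share was below that of all genes. The median log2 difference over the 9 genes was -0.08 in FAPI against MI (all genes -0.03), 0.02 in FapKO against MI (-0.08) and 0.32 in MI against sham hearts (0.14).

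The scaling of libraries moved all of these values together. Under total-count scaling the median difference of all genes was -0.44 in FAPI against MI (-0.03 with TMM), -0.63 in FapKO against MI (-0.08) and 1.23 in MI against sham hearts (0.14). Relative to these medians, Nppb in FAPI against MI hearts was 1.80 higher with TMM and 1.86 higher with total counts, and Corin 0.98 and 1.00 higher. Relative to the median, Mme was -1.28 in MI against sham hearts with both scalings and 0.82 in FapKO against MI hearts with both. The receptor genes moved with the median: under total-count scaling Npr1 and Npr2 passed the test as lower in FAPI against MI hearts (-0.74 and -0.50) and in FapKO against MI hearts (-0.52 and -0.60), and all 3 receptors as higher in MI against sham hearts (1.22, 1.27 and 1.38). Against sham hearts, total-count scaling also called Npr2, Npr3 and Furin higher in FAPI hearts (0.77, 1.07 and 0.78) and all 3 receptors and Furin higher in FapKO hearts (0.67 to 0.85).

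Because Nppa, Nppb and Corin are known as myocyte genes, each was also set against the mean log2 level of the 21 cardiomyocyte markers in the same library. The mean of Nppa minus that level was -0.37 ± 0.584 in FAPI, -1.23 ± 0.263 in FapKO, 0.64 ± 0.859 in MI (SD, n = 4 each) and -3.96 ± 0.292 in sham hearts (SD, n = 3). Nppa relative to the markers was higher in all 4 MI hearts than in the 3 sham hearts (difference 4.60) and lower in all 4 FapKO hearts than in the MI hearts (-1.87). Both differences had the smallest possible exact permutation p of 0.0286, and 0.0714 after adjustment over 15 tests, so neither passed. With these group sizes even groups without overlap can hardly pass after adjustment, so no conclusion is drawn from not passing.

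Nppb relative to the markers was -2.29 ± 0.698 in FAPI, -4.07 ± 1.04 in FapKO, -2.57 ± 0.540 in MI and -5.78 ± 0.576 in sham hearts. The difference was 0.28 in FAPI against MI hearts (exact permutation p = 0.486, adjusted p = 0.607), against 1.77 in the fit of Nppb alone. It was -1.50 in FapKO against MI hearts (exact permutation p = 0.0571, adjusted p = 0.122) and 3.20 in MI against sham hearts (exact permutation p = 0.0286, adjusted p = 0.0714, no overlap).

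Corin relative to the markers ran opposite to Corin itself. It was -5.99 ± 0.134 in FAPI, -5.90 ± 0.0664 in FapKO, -5.33 ± 0.252 in MI and -6.25 ± 0.123 in sham hearts, so the differences were -0.66 in FAPI against MI, -0.57 in FapKO against MI and 0.92 in MI against sham hearts. In each of these 3 comparisons the groups did not overlap, and p was the smallest that the design allows (exact permutation p = 0.0286, adjusted p = 0.0714). None passed after adjustment, which this design hardly permits. Single markers differed. In FAPI against MI hearts Actc1 (log2 0.86) and Ryr2 (0.84) rose less than Corin (0.95), and the other markers rose more. In FapKO against MI hearts Tnnt2 (0.92), Actc1 (1.08), Mybpc3 (1.24) and Ryr2 (1.41) rose less than Corin (1.45), and the others more. With the marker level as a covariate in the edgeR fit, Nppb in FAPI against MI hearts was 0.64 (adjusted p = 0.97), and Corin changed sign to -0.85 in FAPI against MI (adjusted p = 0.28), -0.82 in FapKO against MI (adjusted p = 0.229) and 1.25 in MI against sham hearts (adjusted p = 0.0424). The marker level differs between the groups, so its part and the part of the condition cannot be told apart in this fit.

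**Figure D4:**
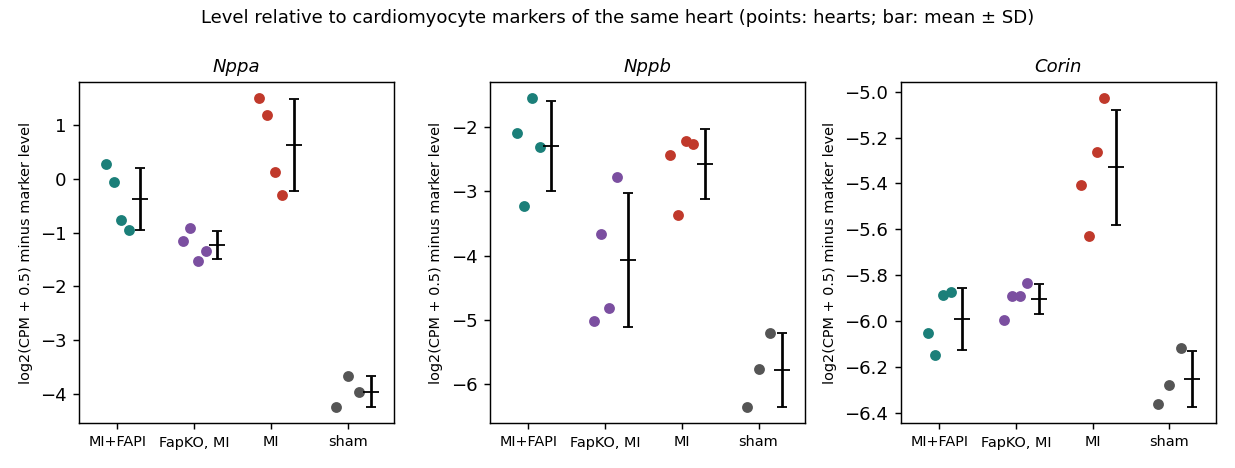
Nppa, Nppb and Corin in each heart on the log2(CPM + 0.5) scale minus the mean log2 level of 21 cardiomyocyte markers in the same library. Points are hearts and bars are the group mean ± SD (n = 4 in MI+FAPI, FapKO and MI hearts, 3 in sham hearts). On this scale the group mean of each gene is lowest in sham hearts, though the Corin values of sham and MI+FAPI hearts overlap. Corin is highest in MI hearts.

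Of 10 other genes for maturing or degrading such peptides, 7 were tested in the hearts. The counts of this list, and of the cyclic GMP, transcription factor and stress lists below, stand beside the shares of all genes called. These were 29.8% in FAPI against MI, 51.0% in FapKO against MI and 69.1% in MI against sham hearts. The median log2 difference of all genes was -0.03, -0.08 and 0.14 in that order. In FAPI against MI hearts 1 was higher and 3 were lower (median -0.17, all genes -0.03), with Ece1, the endothelin-converting enzyme gene, at 51.9 ± 2.71 CPM in FAPI and 75.0 ± 10.0 CPM in MI hearts (log2 -0.53, adjusted p = 0.00114). Ide, the insulin-degrading enzyme gene, averaged 25.9 ± 5.03 CPM in FAPI and 15.5 ± 2.21 CPM in MI hearts (log2 0.74, adjusted p = 0.00164). In FapKO against MI hearts 1 was higher and 4 were lower, led by the targeted gene Fap (log2 -2.36, adjusted p = 6.94e-08) and Ece1 (-0.36, adjusted p = 0.00708). In MI against sham hearts 3 were higher and 2 lower. Fap rose by 1.75 ± 0.181 (adjusted p = 3.09e-07), and Pcsk5, a convertase related to furin, by 2.01 ± 0.244 (adjusted p = 1.83e-06).

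The 13 genes for making or breaking down cyclic GMP beside the receptors were all tested. In FAPI against MI hearts 3 were higher and 2 lower (median -0.06), with the phosphodiesterase genes Pde1c (log2 1.52, adjusted p = 0.00069) and Pde9a (1.12, adjusted p = 0.00507) at the top. Pde9a, whose enzyme is specific for cyclic GMP, averaged 1.16 ± 0.207 CPM in FAPI, 1.74 ± 0.430 in FapKO, 0.523 ± 0.179 in MI and 2.00 ± 0.571 CPM in sham hearts. In FapKO against MI hearts 3 were higher and 5 lower (median 0.20), led by Pde1c (1.99, adjusted p = 1.89e-05) and Pde1a (-0.68, adjusted p = 6.25e-05). In MI against sham hearts 5 were higher and 5 lower (median 0.69), led by Pde1a (1.69, adjusted p = 8.82e-09) and Pde3b (2.08, adjusted p = 1.5e-07).

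Among 11 tested genes acting after cyclic GMP, 1 was higher and 4 were lower in FAPI against MI hearts (median -0.29), 1 was higher and 6 lower in FapKO against MI hearts (median -0.37), and 6 were higher and 2 lower in MI against sham hearts (median 0.77). The smallest p in each comparison belonged to Pln, the phospholamban gene, and Myl9, a regulatory myosin light chain gene of smooth muscle. Pln, which is also among the 21 cardiomyocyte markers, averaged 211 ± 48.8 CPM in FAPI, 367 ± 41.1 in FapKO, 75.9 ± 20.7 in MI and 905 ± 117 CPM in sham hearts. Myl9 averaged 291 ± 24.6 CPM in FAPI, 180.5 ± 20.4 in FapKO, 504 ± 86.5 in MI and 130.1 ± 4.49 CPM in sham hearts.

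For 13 transcription factors known to bind the Nppa and Nppb promoters, 4 were higher and 1 lower in FAPI against MI hearts (median 0.24), 6 were higher and 2 lower in FapKO against MI hearts (median 0.24), and 3 were higher and 8 lower in MI against sham hearts (median -0.46). Gata4, a cardiac GATA factor, averaged 22.5 ± 3.31 CPM in FAPI, 22.9 ± 3.00 in FapKO, 12.0 ± 4.23 in MI and 28.3 ± 2.16 CPM in sham hearts (log2 0.91 in FAPI against MI, adjusted p = 0.00194). Nkx2-5, a cardiac homeobox factor, averaged 47.3 ± 14.1 CPM in FAPI, 57.5 ± 10.4 in FapKO, 19.5 ± 10.8 in MI and 72.4 ± 9.85 CPM in sham hearts (log2 1.28 in FAPI against MI, adjusted p = 0.00361, and 1.56 in FapKO against MI, adjusted p = 0.000312). Tbx5, a T-box factor, was 0.96 higher in FapKO than in MI hearts (adjusted p = 0.00034) and lower in MI than in sham hearts (log2 -2.20, adjusted p = 4.43e-08), and Myocd, a coactivator of SRF, was lower in MI than in sham hearts too (-2.01, adjusted p = 1.39e-06). The median log2 difference of the 21 cardiomyocyte markers was 1.64 in FAPI against MI, 2.01 in FapKO against MI and -2.54 in MI against sham hearts. Their part in the values of these factors and of Pde1c was not tested.

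Of 8 genes known for stretch or stress of the myocardium, 5 were higher and 1 lower in FAPI against MI hearts (median 1.55), 4 were higher and 3 lower in FapKO against MI hearts (median 0.87), and 4 were higher and 1 lower in MI against sham hearts (median 0.74). Acta1, the skeletal actin gene, averaged 3466 ± 1155 CPM in FAPI, 3314 ± 1138 in FapKO, 515 ± 259 in MI and 557 ± 128 CPM in sham hearts (log2 2.75 in FAPI against MI, adjusted p = 0.000141, and 2.68 in FapKO against MI, adjusted p = 2.31e-05). Ankrd1, a sarcomeric stress gene, averaged 7765 ± 1810 CPM in FAPI, 7061 ± 1319 in FapKO, 2515 ± 964 in MI and 1529 ± 329 CPM in sham hearts (log2 1.63 in FAPI against MI, adjusted p = 0.000329). The part of the cardiomyocyte marker level in the Acta1 and Ankrd1 values was not tested. Ccn2, a matricellular gene, averaged 132 ± 6.70 CPM in FAPI, 70.7 ± 14.8 in FapKO, 159 ± 27.9 in MI and 30.1 ± 5.33 CPM in sham hearts. It rose in MI against sham hearts (log2 2.40, adjusted p = 1.58e-08), as did Actn1, an alpha-actinin gene (2.12, adjusted p = 2.58e-08), and fell in FapKO against MI hearts (-1.17, adjusted p = 1.94e-05). The level of 10 fibroblast markers was 8.22 to 8.68 in FAPI, 8.09 to 8.21 in FapKO, 8.71 to 8.93 in MI and 7.01 to 7.21 in sham hearts on the log2 CPM scale. Of them 3 were lower in FAPI than in MI, 6 lower in FapKO than in MI and 10 higher in MI than in sham hearts, and their part in the Ccn2 and Actn1 values was not tested.

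The genes whose log2 level ran most like each member over the 15 hearts were taken among 6836 genes of at least 10 CPM on average, by Pearson's r and as a description, since the points share 4 groups. Corin ran with Fbxo44 (r = 0.99), Actc1, the cardiac actin gene, and Kcnk3 (both 0.98). Actc1 is among the cardiomyocyte markers. Nppb ran with Uck2 (0.92), Rcan1, a calcineurin regulator gene (0.90), and Pfkp, a phosphofructokinase gene (0.89). Nppa ran with Wfdc18 (0.93), Rad50 and Golgb1 (both 0.92), Mme with Bcl9 (0.94), Ubr2 (0.90) and Tshz1 (0.88), and Nppc with Srgn (0.88), Bmp2k (0.87) and Ube2q1 (0.85). Npr1 ran with F13a1 (0.76), Slc25a44 (0.75) and Tshz2 (0.74), and Npr2 with Zbtb4 (0.72), Rras (0.70) and Gngt2 (0.69). Npr3 ran with Abca8a (0.80), Atp11a (0.79) and Dpep1 (0.77), and Furin with Man2a2 and Ap2a2 (both 0.85) and Sec23ip (0.83).

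In the cultures the peptide genes were nearly undetected. Nppa had 0 counts in all 6 libraries, which allows up to 3 counts, or 0.524 to 0.727 CPM in co-cultured fibroblasts and 0.161 to 0.239 CPM in fibroblasts alone. Nppb had 0 counts in the 3 co-cultures and 4, 1 and 5 counts in the 3 cultures alone. Nppc had 0 counts in the co-cultures and 2, 0 and 4 counts in the cultures alone, and Corin 0 in the co-cultures and 1, 2 and 2 alone. The values of Nppb, Nppc and Corin alone (0.269 CPM at most) lay below what 3 counts are worth in the co-cultures, so a difference was not detectable at this depth. Of the 21 cardiomyocyte markers, 9 were at 0 in all co-cultures and 3 in all cultures alone.

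Receptor genes were present in these fibroblasts. Npr3 had 10.9, 13.2 and 11.9 CPM in co-cultures and 15.4, 16.0 and 14.2 CPM alone, without overlap (log2 -0.34 ± 0.148, adjusted p = 0.074 by edgeR). Npr2 had 9.21, 9.17 and 6.63 CPM in co-cultures and 7.61, 9.39 and 4.99 CPM alone, with overlap (0.18 ± 0.270, adjusted p = 0.576). Npr1 had 4, 7 and 17 counts in co-cultures (0.970, 1.56 and 2.97 CPM) and 1, 1 and 4 counts alone (0.0590, 0.0796 and 0.215 CPM). It was removed by the filter on low counts, and with no filter it was called higher in co-cultures (log2 3.72, adjusted p = 9.38e-07). The 4 edgeR settings that tested Npr1 gave log2 3.25 to 4.11 (adjusted p from 9.38e-07 to 0.00787). Without the filter the SE of Furin was 0.181, against 0.447 with it. The p-value without the filter is therefore not comparable with those of the filtered fit. Over the summed counts the co-cultures had 15.7 times the level alone (95% exact interval 6.38 to 46.4, counting error only).

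Of the proteases, Mme had 1.45, 1.34 and 2.44 CPM in co-cultures (6 to 14 counts) and 0.531, 1.19 and 0.967 CPM alone (9 to 18 counts), without overlap (log2 1.01 ± 0.426, adjusted p = 0.0661). Furin had 47.8, 23.5 and 24.3 CPM in co-cultures and 8.20, 26.4 and 10.3 CPM alone, where replicate 2 lay among the co-cultures (1.09 ± 0.447, adjusted p = 0.0603). Without that replicate Furin was called higher in co-cultures (1.74, adjusted p = 2.98e-05). None of the 4 members tested was called by edgeR, where 59.8% of 12293 genes were called (30.3% higher and 29.5% lower), and 3 of the 4 had an unadjusted p under 0.05. DESeq2 and limma-voom each called 1, Furin. Groups did not overlap for 2 of the 4, and 67.0% of all genes tested did not.

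Of the other pathway genes, 1 of 7 tested for maturing or degrading peptides was higher in co-cultures and 3 were lower (median log2 difference -0.49, all genes -0.06). Beside this list and the next ones, 59.8% of all genes tested were called. Of 7 genes for making or breaking down cyclic GMP 2 were higher and 1 lower (median -0.29), and of 8 acting after it 2 were higher and 5 lower (median -1.22). Of 12 transcription factors 3 were higher and 5 lower (median -0.34), and all 4 tested stress genes were lower (median -1.49).

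Co-cultured fibroblasts were sorted as CD45-CD31-Pdgfra+ cells and fibroblasts alone were not sorted, so the partner cells and the sort cannot be told apart. The level of 10 fibroblast markers was 9.16 to 9.22 in co-cultures and 8.19 to 8.30 alone, that of 12 endothelial markers 0.942 to 0.970 and 0.941 to 1.08, and that of 10 macrophage markers 2.23 to 2.69 and 4.01 to 4.33, on the log2 CPM scale. Summed, the endothelial markers were 339 to 385 CPM in co-cultures and 180.1 to 199 CPM alone, and their part in the Npr1 value was not tested.

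**Figure D5:**
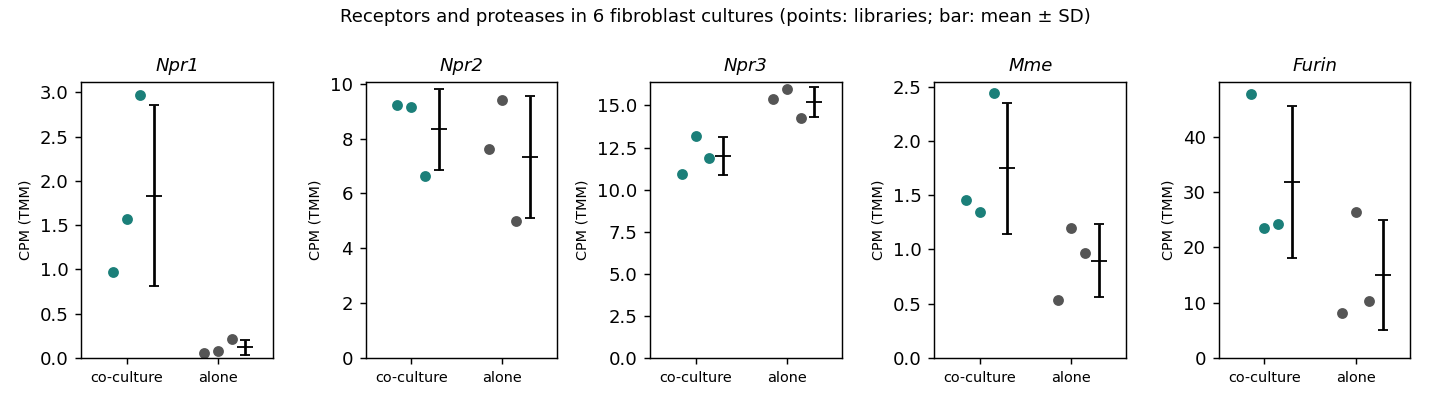
Level of 2 guanylate cyclase receptor genes, the clearance receptor gene Npr3 and the proteases Mme and Furin in 6 fibroblast libraries, in TMM-scaled CPM on linear axes from 0. Points are libraries and bars are the group mean ± SD (n = 3 each). Npr1 and Mme are higher in the 3 co-cultures and Npr3 lower, without overlap, while Npr2 and Furin overlap.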

How the data were processed

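Libraries followed a Smart-seq2 protocol modified to carry UMIs, with fibroblast libraries read as pairs of 150 bases, per the labels' protocols. Reads were handled with STAR and HTSeq on mm10, per the submitters' processing notes, with versions not given in the sources used here. The deposited values are raw counts per gene, 1 table per library. The fibroblast tables carry a mark of duplicate removal and the heart tables do not, per the file names, so the experiments were never compared. Strand use in counting is not stated. Of 53801 identifiers, 53620 matched a GENCODE M21 symbol, 0 entries named no gene, and 6 columns of a table of the whole series were not used.

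From the counts, edgeR 4.0.16 in R 4.3.3 (TMM, filterByExpr, quasi-likelihood test, Benjamini-Hochberg over all genes, threshold 0.05) was fitted to all 15 hearts and, apart, to 6 fibroblast libraries, after a test on simulated data. SE is the absolute log2 fold change over the square root of F, an approximation. CPM are scaled by TMM library sizes, with n of 3 or 4 a group. Ratios within libraries used log2(CPM + 0.5) and exact two-sided permutation tests. Intervals and count floors cover counting error only. Alternatives were RLE and total-count scaling, other filters, DESeq2 1.42.0, limma-voom 3.58.1, a table without mitochondrial genes and the top 50 by abundance, fits of only the groups compared, a replicate block, a cardiomyocyte marker covariate, leaving out each library, and pseudocounts of 0.1 and 2. All 9 members are named in every comparison, and of each pathway list the 2 genes with the smallest p in FAPI against MI, FapKO against MI and MI against sham hearts, and for each member the 3 genes most like it. Members, lists and markers were chosen with earlier results of these data known. Promoters came from RefSeq (GRCm38.p6), and figures from matplotlib 3.10.9 under Python 3.11.15, with pandas 2.3.3 and numpy 2.4.6.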

Additional observations from a re-analysis of the deposited data

Results flagged for a closer look

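In the MI group, Nppc in replicate 3 (1.84 CPM) lay far from the nearest other heart (0.402 CPM). In the FapKO group, Npr2 in replicate 1 (9.92 CPM) lay far from the nearest other heart (7.92 CPM). These were the samples far from the rest of their group among 27 gene and group combinations tested, where chance gives about 1 in 20.

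The difference of Mme from the same MI hearts was unlike between the inhibitor and the knockout. FAPI minus FapKO was -1.415 on the log2 scale (adjusted p = 0.0022 by edgeR), with every FAPI heart below every FapKO heart.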

How the results depend on the processing

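Of 989 alternative values for single genes, 874 kept their direction and their side of the threshold, 24 lost their call, 48 gained one and 43 changed sign. In 37 of the 43 neither value passed the threshold, and the cause of the sign changes was not tested. With a covariate for the level of cardiomyocyte markers, Corin changed sign to -0.85 in FAPI against MI and -0.82 in FapKO against MI hearts. It also changed sign to 1.25 in MI against sham, 0.40 in FAPI against sham and 0.44 in FapKO against sham hearts. Of these, 1.25 and 0.44 passed the threshold (adjusted p = 0.0424 and 0.0382 by edgeR). With the covariate, values that were not called changed sign for Npr2 (0.0182) and Npr3 (-0.84) in FAPI against MI hearts. In FapKO against MI hearts they did so for Nppa (-0.22), Nppb (-0.88), Npr1 (-0.43) and Npr2 (0.07), and in FAPI against sham hearts for Npr1 (0.0591). With total-count scaling Npr1 changed sign and passed at -0.52 in FapKO against MI hearts. Values not called changed sign with it for Npr3 in FAPI against MI (-0.32), Nppa in FapKO against MI (-0.37), Npr2 (0.10) and Furin (0.10) in FAPI against FapKO, Npr1 in FAPI against sham (0.48), Mme (0.13) and Corin (0.21) in FapKO against sham hearts, and Npr2 in co-cultures (-0.14). Npr3 in FapKO against MI hearts, -0.00 as reported, was 0.0233 with RLE factors, 0.0184 with DESeq2, 0.10 with limma-voom, 0.0039 without mitochondrial and abundant genes and 0.0756 with the replicate block. Leaving out each library gave both signs for Npr3 (-0.0935 to 0.29) in FAPI against MI, for Nppa (-0.0758 to 0.31), Npr1 (-0.14 to 0.13) and Npr3 (-0.18 to 0.20) in FapKO against MI, for Npr2 (-0.0605 to 0.0625), Npr3 (-0.089 to 0.23) and Furin (-0.10 to 0.0516) in FAPI against FapKO hearts, and for Npr2 (-0.0523 to 0.37) in co-cultures. Under total-count scaling the number of the 9 members called was 6 in FAPI against MI (2 as reported), 5 in FapKO against MI (3), 8 in MI against sham (5), 7 in FAPI against sham (4), 6 in FapKO against sham (1) and 1 in co-cultures against cultures alone (0). In these comparisons it moved the higher share of all called genes to 14.6% (60.1% as reported), 16.6% (49.1%), 86.1% (53.7%), 86.8% (52.4%), 91.7% (48.7%) and 32.7% (50.7%), and to 67.9% (53.5%) in FAPI against FapKO hearts. With the covariate the number of members called was 0 in FAPI against MI, 0 in FapKO against MI, 2 in MI against sham and 3 in FapKO against sham hearts. With no filter it was 4 in FAPI against MI, 2 in FAPI against FapKO, 2 in FapKO against sham and 2 in co-cultures. A fit of only the groups compared gave 1 in FAPI against MI and 3 in FapKO against sham hearts. DESeq2 and limma-voom gave 1 each in co-cultures. Leaving out each library gave 1 to 4 in FAPI against MI, 2 to 4 in FapKO against MI, 4 to 5 in MI against sham, 1 to 2 in FAPI against FapKO, 3 to 4 in FAPI against sham, 1 to 2 in FapKO against sham and 0 to 1 in co-cultures.

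The covariate also ended the calls of Nppb in FAPI against MI (0.64) and of Nppc (-4.32) and Mme (0.86) in FapKO against MI hearts. In MI against sham hearts it ended those of Nppa (2.40), Mme (-1.29) and Furin (0.39). It added calls of Npr3 (1.04) and Nppc (3.24) in FAPI against sham and of Nppb (1.79) in FapKO against sham hearts. Total-count scaling ended those of Mme in FapKO against MI (0.19) and in MI against sham hearts (-0.05), and of Corin in FAPI against MI (0.55) and FAPI against sham hearts (-0.17). Replicate numbers did not pair the samples: deviations of same-numbered hearts correlated at -0.294 to 0.322 over 21 pairs, and of cultures at -0.183 to 0.0643 over 3 pairs. With the replicate block, 3 members were called in FAPI against MI, 3 in FapKO against MI, 5 in MI against sham, 1 in FAPI against FapKO, 5 in FAPI against sham, 1 in FapKO against sham hearts and 0 in co-cultures. The block added the calls of Nppc in FAPI against MI (-1.30, adjusted p = 0.0465) and in FAPI against sham hearts (adjusted p = 0.0489). DESeq2 gave no adjusted p for Nppc in FAPI against FapKO hearts. Depth limits Nppc in all hearts and Nppa, Nppb, Nppc, Corin and Npr1 in the cultures, where counts were 17 or fewer per library.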
